A study of Mus musculus with 6 samples.

Results

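The tumour suppressor p53, encoded by Trp53, is a transcription factor that is held at a low level by the ubiquitin ligase Mdm2 and is released from it when DNA is damaged or cells are stressed. The kinases Atm and Atr sense DNA damage and, with their effectors Chek2 and Chek1, act on p53 and on the cell cycle. Genes that p53 activates slow the cell cycle, adjust metabolism, repair DNA or promote cell death, and in the kidney tubule this response is known from toxic and ischaemic injury. Described here are 36 genes of this response, chosen by gene symbol from the 55487 genes of the deposited tables. All 36 were found, with 1 row each in both tables, and all 36 passed the filter on low counts.

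Bulk RNA sequencing was done on primary epithelial cells from mouse kidney tubules. In 3 libraries, called the knockout, the cells had received an adenovirus carrying Cre recombinase to delete the epithelial ETS transcription factor gene Elf3. In the other 3, the controls, they had received a control adenovirus and carry the genotype label wild type. Both groups were exposed to the cytokines TNFα and IFNγ before RNA was taken, and all 6 libraries carry the same batch label. Cre exposure and Elf3 deletion mark the same libraries and cannot be told apart. The sources used here do not give what the control virus carried, whether the controls had the floxed allele, how many animals were used, their strain, age and tubule segment, or the doses and times of the cytokines. Nothing in the labels says that the replicates came from separate cultures or animals, so p-values measure the spread between these libraries, which may be technical.

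Total estimated counts lay between 8961779 and 10774195 per library, where a floor of 3 counts corresponds to 0.282 to 0.337 CPM (counts scaled to library size, TMM-scaled where levels are given), which covers counting error only. Elf3 had 4.26, 3.01 and 2.03 CPM in the knockout libraries, against 18.9, 24.3 and 22.8 CPM in the controls, a fall of 2.84 on the log2 scale (adjusted p = 6.84e-14). Of 10 tubular epithelial markers all 10 passed the count filter, 6 higher and 3 lower in the knockout, with a summed level of 6843 to 7029 TPM (transcripts scaled for length and library) in the knockout and 4846 to 4978 TPM in the controls. Markers of other cell types were low or undetected in part: the 7 leukocyte markers summed to 15.6 to 31.5 TPM in the knockout and 19.7 to 22.4 TPM in the controls. The highest of these sums, in knockout replicate 3, holds 12.86 TPM of Adgre1 from 21 counts. Knockout replicates 1 and 2 had 0.73 and 0.74 TPM of Adgre1 from 12 and 14 counts. None of the 5 leukocyte markers tested passed, and Cd3e had 0 counts in every library. The 7 fibroblast markers summed to 28.1 to 35.2 TPM in the knockout and 29.4 to 30.8 TPM in the controls, with 2 higher, 1 lower and Lum at 0 counts in every library. The 5 endothelial markers summed to 2.27 to 2.99 TPM in the knockout and 0.52 to 0.80 TPM in the controls. Kdr, the VEGF receptor gene, was the endothelial marker called, and Pecam1 and Cdh5 lay under the floor of 3 counts on average in both groups. The 3 podocyte markers summed to 94.9 to 115 TPM in the knockout and 55.3 to 62.3 TPM in the controls, nearly all of it Podxl and Synpo, both called higher. The part of these markers in the results below was not tested.

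The members are spread over the genome, with 5 on chromosome 9 and 5 on chromosome 11 as the densest. Promoter sequences (RefSeq, GRCm38.p6, 250 bases before to 50 after the annotated start) were at hand for 31 of the 36 members. They were searched for the p53 decamer consensus, the 10-base element that p53 binds as a pair; the consensus is its own reverse complement, so 1 strand covers both. An exact decamer was found in 10 of the 36 promoters of these members (9 of 31 members), against 8.36% of all 32851 promoters in the table. It stood in 5 of the 16 members called higher for which a promoter was at hand and in 1 of the 6 called lower. Gadd45a, Polk and Ppm1d, which also held it, did not pass. A pair of decamers with at most 2 mismatches and a spacer of at most 13 bases was found for Ccng1, Gadd45a and Sesn1. That is 3 of the 36 member promoters, against 4.09% of all promoters. A match is a description of letters, and many p53 sites lie outside such windows. The ETS-type element CCGGAAGT, searched on both strands, was in 0 of the 36 member promoters and in 3.89% of all promoters. Only this exact form was searched, so other forms of ETS sites may be present.

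The promoters of Ccng1, which was the most abundant member and higher in the knockout, and of Sesn1, which was lower, are printed because both hold a decamer pair and the genes moved in opposite directions. Capitals mark the decamers. In Ccng1 the pair has no spacer and 1 mismatch in all, and in Sesn1, at the downstream one of its 2 annotated starts in the table, it has a spacer of 3 bases and 2 mismatches.
Ccng1, chr11:40755237-40755536, minus strand: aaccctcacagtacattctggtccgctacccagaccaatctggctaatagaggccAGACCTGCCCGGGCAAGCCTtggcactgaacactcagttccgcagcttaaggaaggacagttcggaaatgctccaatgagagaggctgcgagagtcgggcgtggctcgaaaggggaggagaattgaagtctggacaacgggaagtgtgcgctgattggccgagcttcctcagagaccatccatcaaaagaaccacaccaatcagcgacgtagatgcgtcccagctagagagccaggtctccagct
Sesn1, chr10:41887189-41887488, plus strand: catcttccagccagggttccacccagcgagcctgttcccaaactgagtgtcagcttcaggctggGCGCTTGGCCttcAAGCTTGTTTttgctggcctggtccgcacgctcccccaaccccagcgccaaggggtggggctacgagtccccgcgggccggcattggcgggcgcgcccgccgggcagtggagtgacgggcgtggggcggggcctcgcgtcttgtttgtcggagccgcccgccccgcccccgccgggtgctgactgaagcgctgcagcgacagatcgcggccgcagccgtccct

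Exact decamers of 4 further members called higher are shown in windows of 30 bases, again with the decamer in capitals, since Mdm2, Trp53, Ei24 and Aen are described below. They begin 186 bases before the start in Mdm2, 75 before in Trp53 and 10 before in Ei24. In Aen the decamer lies 10 bases after 1 annotated start and 121 before the other.
Mdm2, chr10:117710925-117710954, minus strand: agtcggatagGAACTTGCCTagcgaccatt
Trp53, chr11:69580274-69580303, plus strand: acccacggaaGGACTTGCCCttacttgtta
Ei24, chr9:36797325-36797354, minus strand: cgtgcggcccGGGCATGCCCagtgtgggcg
Aen, chr7:78895927-78895956, plus strand: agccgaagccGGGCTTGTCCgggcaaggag

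Most of the members grouped here as p53 targets were higher in the knockout, while genes of the damage kinases and of homologous recombination were lower or did not pass. Of the 36 members, 20 were higher, 6 were lower and 10 did not pass at an adjusted p under 0.05 (edgeR quasi-likelihood test, Benjamini-Hochberg over all 13755 genes tested). Over all tested genes 36.6% were called, 18.3% higher and 18.3% lower. Of the members 55.6% were higher and 16.7% lower, the second lying near its share over all genes. The median log2 fold change of the members was 0.23, beside -0.01 over all tested genes. The rises were moderate: 2 of 36 members, Gadd45g and Epha2, rose 2-fold or more, which is 5.56% of the members beside 6.04% of all tested genes called at 2-fold or more in either direction. Knockout and control libraries did not overlap in CPM for 21 members (58.3%) above and 7 (19.4%) below the controls. Over all tested genes the shares were 23% above and 23.6% below. In bulk RNA, fewer cells that express a gene and less RNA per cell cannot be told apart.

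By role, the 26 members grouped as targets for arrest, stress, survival or repair gave 18 higher, 2 lower and 6 that did not pass. Their median log2 fold change was 0.33, and the grouping also holds relatives of usual targets, such as Gadd45b and Gadd45g. The 6 members that are damage kinases or recombination genes gave 0 higher, 4 lower and 2 that did not pass, with a median of -0.43. These counts, and those by role below, stand beside 18.3% higher and 18.3% lower among all tested genes. The calls of lower members were lost in the TPM settings, where both the unit and the fitted model differ from the main test. On the deposited TPM with limma, 0 members were lower in each of 3 settings (3 in each at an unadjusted p under 0.05), with 17 or 18 members higher, while 9.59% to 17.6% of all genes tested were called there. Leaving out 1 library at a time gave 19 or 20 members higher and 4 or 5 lower.

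**Figure D1:**
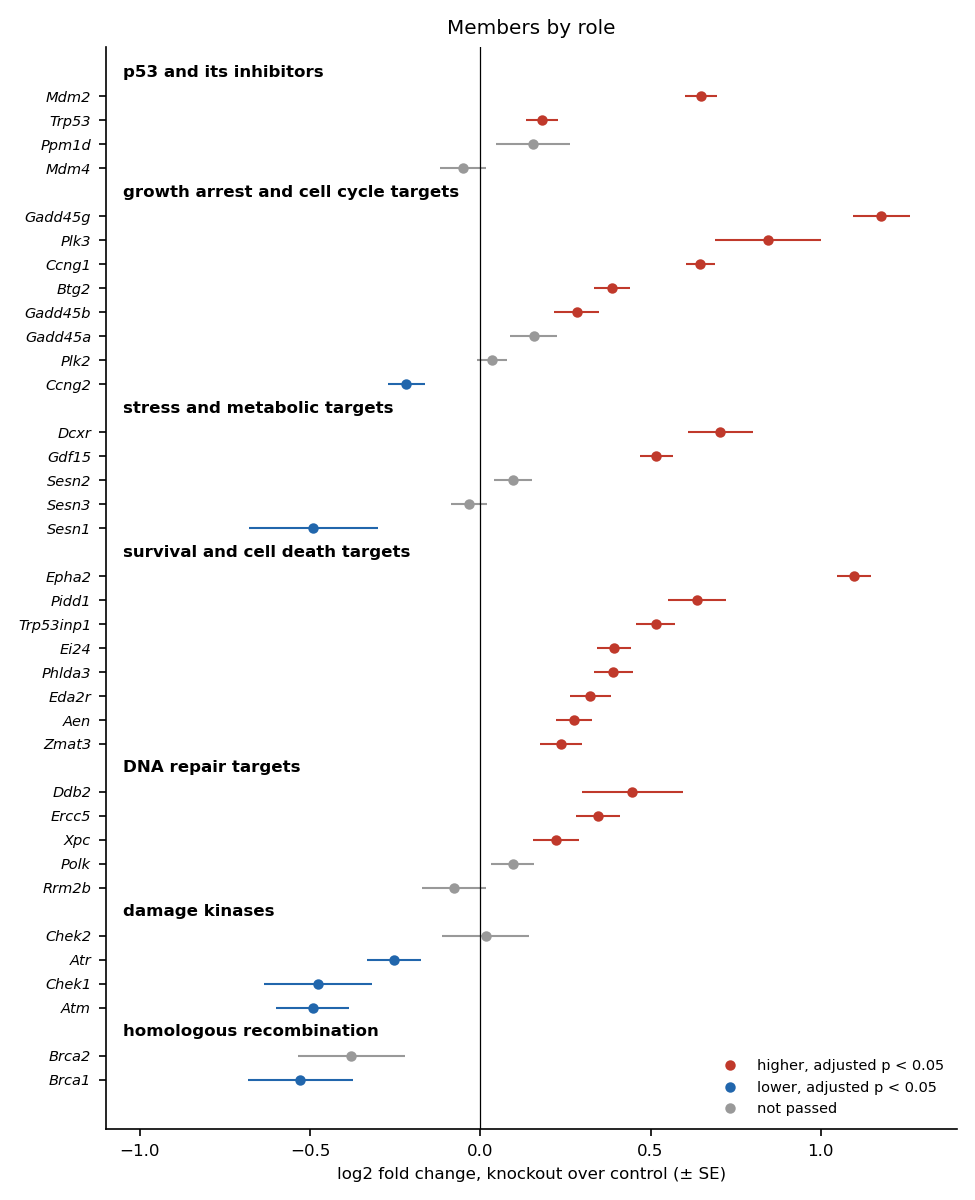
Log2 fold change of each member, knockout over control, with its standard error, grouped by role; red marks genes higher and blue genes lower at an adjusted p under 0.05, grey those that did not pass. All 8 survival and cell death targets lie to the right of 0, and Atm, Atr, Chek1, Brca1 and Brca2 to the left.

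Trp53 itself (ENSMUSG00000059552, mm10 chromosome 11, 69580359 to 69591873, plus strand) had 275, 279.9 and 278 CPM in the knockout libraries, against 248, 249 and 237 CPM in the controls. The groups did not overlap, and the level was 1.13-fold higher (log2 fold change 0.18, SE 0.047, adjusted p = 0.00287). Its negative regulator Mdm2 (ENSMUSG00000020184, chromosome 10, 117688875 to 117710758, minus strand), which is both a p53 target and the ligase that marks p53 for destruction, had 458, 478 and 468 CPM in the knockout, against 308, 308 and 280.0 CPM in the controls. Mdm2 rose 1.57-fold, with every knockout library above every control (adjusted p = 1.53e-12).

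Mdm4, a relative of Mdm2 that binds and restrains p53, had 91.7, 102 and 108 CPM in the knockout and 110.2, 108 and 94.5 CPM in the controls. The groups overlapped (log2 fold change -0.05, SE 0.068, adjusted p = 0.603). On TPM the Mdm4 groups did not overlap, with 37.1, 40.4 and 42.1 TPM in the knockout below 55.7, 47.1 and 46.0 TPM in the controls, and limma gave adjusted p = 0.0629 to 0.0943 over 3 TPM settings. Over all alternatives the adjusted p of Mdm4 ranged from 0.0629 to 0.962, and without knockout replicate 1 its log2 fold change was 0.02. Ppm1d, the phosphatase that switches off p53 and the damage kinases, averaged 22.4 ± 1.95 CPM in the knockout and 20.2 ± 1.25 CPM in the controls (SD, n = 3 each) and did not pass (adjusted p = 0.28). The ratio of Mdm2 to Mdm4 in TPM was 8.98, 8.39 and 7.59 in the knockout libraries and 3.98, 4.67 and 4.06 in the controls. The 2 sets of ratios did not overlap, and the mean log2 ratio was 0.97 higher in the knockout (two-sided exact permutation test, p = 0.1, the smallest that 3 against 3 libraries allow; 0.2 adjusted over 8 pairs). On CPM the difference was 0.70.

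**Figure D2:**
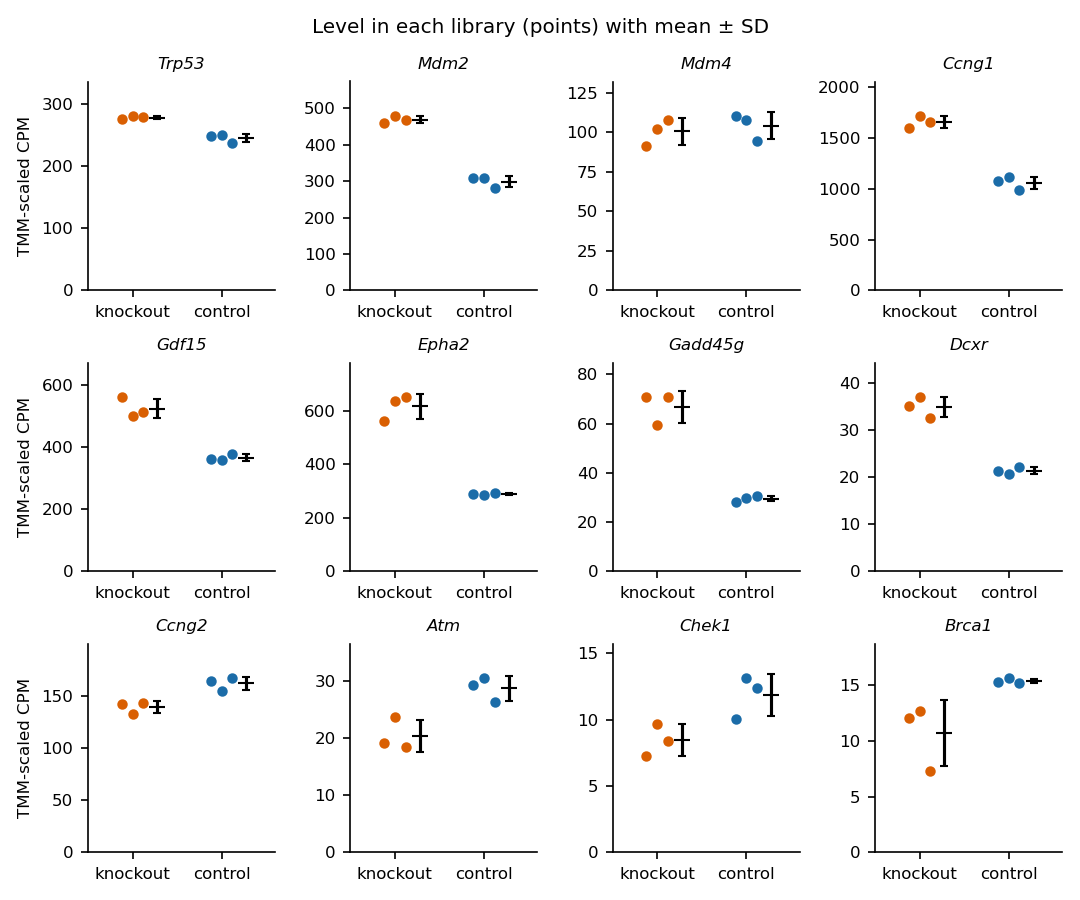
TMM-scaled CPM (vertical axis, from 0) of 12 members in each knockout library (orange, left) and each control library (blue, right), with the mean and SD beside the points. Mdm2, Ccng1, Gdf15, Epha2, Gadd45g and Dcxr are higher in every knockout library, Ccng2, Atm, Chek1 and Brca1 are lower in every one, and the groups overlap for Mdm4.

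Among targets that act on growth and the cell cycle, 5 of 8 rose, 1 fell and 2 did not pass. Ccng1 (ENSMUSG00000020326, chromosome 11, 40748552 to 40755311, minus strand), cyclin G1, a long-known p53 target that brings a phosphatase to Mdm2, had 1601, 1711 and 1654 CPM in the knockout, against 1071, 1109.7 and 991 CPM in the controls. It rose 1.57-fold without overlap (log2 fold change 0.65, SE 0.044, adjusted p = 2.34e-13). Its relative Ccng2, cyclin G2, also linked to arrest, had 142, 133 and 143 CPM in the knockout and 164, 155 and 167 CPM in the controls. Ccng2 fell 1.16-fold (adjusted p = 0.00218), each knockout library below each control. That call was lost on TPM, with an adjusted p of 0.0586 to 0.11 over 3 settings and of 0.000716 to 0.11 over all alternatives. The ratio of Ccng1 to Ccng2 in TPM was 7.51, 8.71 and 6.98 in the knockout and 3.95, 4.47 and 2.97 in the controls, a difference of 1.04 on the log2 scale with no overlap (exact p = 0.1, two-sided permutation test, 0.2 adjusted).

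The 3 Gadd45 genes, which encode small stress sensors that activate p38 and JNK signalling, moved by different amounts. Gadd45g (chromosome 13, 51846678 to 51848468, plus strand) had 70.7, 59.4 and 70.7 CPM in the knockout, against 28.4, 29.6 and 30.7 CPM in the controls. It rose 2.26-fold, the most of any member (log2 fold change 1.18, SE 0.083, adjusted p = 5.54e-13). Gadd45b had 106, 107 and 121 CPM in the knockout and 88.8, 86.8 and 99.4 CPM in the controls, a 1.22-fold rise (adjusted p = 0.00103) that was lost on unfiltered TPM (adjusted p = 0.000127 to 0.0679 over the alternatives). Gadd45a, the family member usually named as a p53 target, had 82.8, 70.4 and 72.9 CPM in the knockout and 66.2, 67.4 and 68.8 CPM in the controls. Its knockout libraries lay above the controls, but it did not pass (log2 fold change 0.16, SE 0.069, adjusted p = 0.0759). Without knockout replicate 2 Gadd45a passed, with a log2 fold change of 0.21 (adjusted p = 0.0345 to 0.317 over the alternatives). The ratio of Gadd45a to Gadd45b overlapped between groups.

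Btg2, an antiproliferative cofactor of mRNA deadenylation, had 302, 279.5 and 266 CPM in the knockout and 224, 214 and 209 CPM in the controls. It rose 1.31-fold with no overlap (adjusted p = 4.68e-07). The polo-like kinase gene Plk3 had 16.4, 11.5 and 14.6 CPM in the knockout and 8.10, 8.26 and 7.07 CPM in the controls, and rose 1.80-fold (log2 fold change 0.85, SE 0.16, adjusted p = 6.68e-05). Its relative Plk2, at 489 ± 15.0 CPM in the knockout and 477 ± 6.25 CPM in the controls (SD, n = 3 each), did not pass (adjusted p = 0.573). Per length Plk2 stood far above Plk3 in every library, by 25.6, 35.5 and 29.7 times in TPM in the knockout and by 50.6, 48.9 and 58.3 times in the controls. The log2 ratio of Plk2 to Plk3 was 0.81 lower in the knockout without overlap (KO minus control -0.81, exact permutation p = 0.1, two-sided).

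Of the 5 stress and metabolic targets, 2 rose, 1 fell and 2 did not pass. Gdf15, a secreted stress hormone of the TGF-beta family and a p53 target, had 560.0, 499 and 513 CPM in the knockout, against 362, 358 and 378 CPM in the controls. It rose 1.43-fold without overlap (adjusted p = 3.19e-10). Dcxr, a reductase of dicarbonyls and xylulose that is abundant in kidney, had 35.1, 37.0 and 32.7 CPM in the knockout and 21.3, 20.8 and 22.3 CPM in the controls. Dcxr rose 1.63-fold, each knockout library above each control (log2 fold change 0.71, SE 0.095, adjusted p = 4.7e-07).

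The sestrins, stress-induced inhibitors of the growth kinase complex mTORC1, included no member that rose. Sesn1 had 5.72, 5.08 and 6.28 CPM in the knockout and 9.33, 6.996 and 7.62 CPM in the controls. The groups did not overlap, and Sesn1 was 1.41-fold lower (log2 fold change -0.49, SE 0.19, adjusted p = 0.0416). This call is weak: it was lost with DESeq2, on TPM, and without knockout replicate 1, knockout replicate 2, control replicate 1 or control replicate 3, where log2 fold changes were -0.49, -0.41, -0.36 and -0.52 (adjusted p = 0.0322 to 0.283 over the alternatives). Sesn2 and Sesn3, both far more abundant, did not pass. Sesn2 averaged 166 ± 5.58 CPM in the knockout and 155 ± 8.58 CPM in the controls, and Sesn3 206 ± 13.9 CPM in the knockout and 211 ± 1.99 CPM in the controls (SD, n = 3 each). Without knockout replicate 1 the log2 fold change of Sesn3 was 0.02 in place of -0.03. The ratio of Sesn2 to Sesn1 in TPM was 22.87, 27.17 and 20.75 in the knockout and 13.6, 18.12 and 17.11 in the controls. These ratios did not overlap between groups (two-sided exact permutation test, p = 0.1, 0.2 adjusted over 8 pairs).

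All 8 members that act in survival and cell death rose. Epha2 (ENSMUSG00000006445, chromosome 4, 141301240 to 141329384, plus strand), an ephrin receptor tyrosine kinase, had 562, 635 and 649 CPM in the knockout, against 287, 284 and 293 CPM in the controls. It rose 2.14-fold, with the smallest p-value of the members (log2 fold change 1.10, SE 0.050, adjusted p = 1.69e-17). Pidd1, the scaffold of the complex that activates caspase-2, had 46.7, 53.1 and 45.7 CPM in the knockout and 30.3, 32.9 and 30.4 CPM in the controls. Its rise was 1.55-fold, without overlap (adjusted p = 4.02e-07). Trp53inp1, a stress protein that aids p53 and autophagy, had 419, 476 and 453 CPM in the knockout and 336, 326 and 281 CPM in the controls. It too rose in every knockout library over every control, by 1.43-fold (adjusted p = 8.81e-09).

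Phlda3, a repressor of Akt signalling, had 247, 225 and 238 CPM in the knockout and 166, 179 and 197 CPM in the controls, and rose 1.31-fold (adjusted p = 1.81e-06). Ei24, an endoplasmic reticulum protein of autophagy, had 244, 249 and 234 CPM in the knockout and 187, 185 and 182 CPM in the controls, also 1.31-fold higher (adjusted p = 1.42e-07). For both genes the groups were apart. Eda2r, a receptor of the TNF receptor family for ectodysplasin A2, had 114, 116 and 115 CPM in the knockout and 95.2, 92.7 and 87.8 CPM in the controls (1.25-fold higher, adjusted p = 6.2e-05). Aen, an apoptosis-enhancing nuclease, had 221, 218 and 225 CPM in the knockout and 175, 177 and 198 CPM in the controls (1.21-fold higher, adjusted p = 0.00011). Zmat3, an RNA-binding regulator of splicing, showed the smallest rise of the group, with 181, 219 and 221 CPM in the knockout and 168, 186 and 175 CPM in the controls. Its groups overlapped on CPM but not on TPM, and it was 1.18-fold higher (log2 fold change 0.24, SE 0.062, adjusted p = 0.00291).

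**Figure D3:**
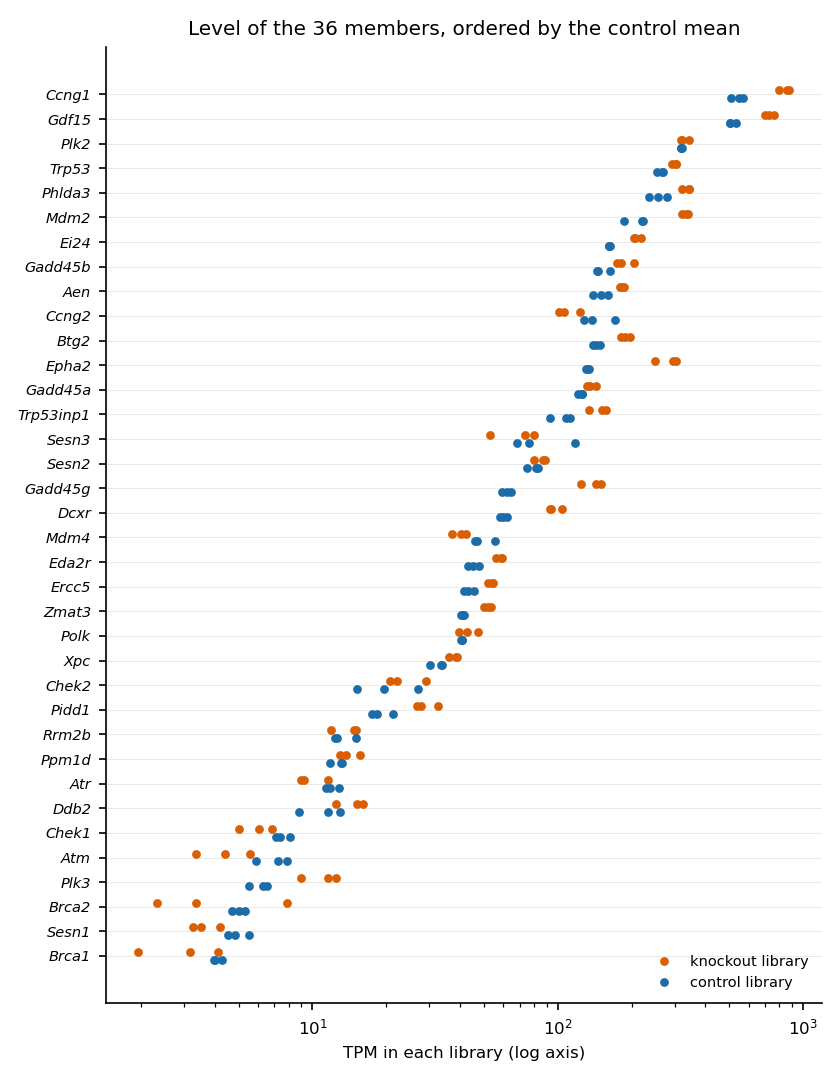
TPM of each member in each library (horizontal, log axis), with knockout libraries in orange above control libraries in blue, ordered by the control mean from top to bottom. Ccng1 and Gdf15 stand at the top in both groups and Brca1 at the bottom, and the knockout libraries of Brca2 are spread more widely than its controls.

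Repair genes under p53 control gave 3 higher and 0 lower of 5. Ercc5, the endonuclease that cuts on the 3′ side of a lesion in nucleotide excision repair, had 101, 93.4 and 93.1 CPM in the knockout and 75.8, 77.2 and 72.9 CPM in the controls. It rose 1.27-fold without overlap (adjusted p = 6.19e-05). Xpc, which recognises distorted DNA, had 75.9, 79.1 and 77.6 CPM in the knockout and 68.6, 61.8 and 69.1 CPM in the controls. Xpc was 1.17-fold higher (adjusted p = 0.00898), a call lost on TPM and without control replicate 2, where its log2 fold change was 0.17 (adjusted p = 0.00737 to 0.113 over the alternatives). Ddb2, the damage-binding partner of Xpc in ultraviolet lesions, had 15.6, 15.6 and 12.9 CPM in the knockout and 10.6, 12.9 and 8.61 CPM in the controls, with groups that nearly touched.

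Ddb2 was 1.36-fold higher (log2 fold change 0.45, SE 0.15, adjusted p = 0.0172). The call was lost on TPM and without knockout replicate 2, control replicate 1 or control replicate 3, where log2 fold changes were 0.40, 0.44 and 0.32 (adjusted p = 0.00555 to 0.244 over the alternatives). In GENCODE M21, 23.8% of its exonic bases overlap exons of Acp2 on the opposite strand, and no source used here gives strand use in counting, so its counts may hold reads of Acp2. Polk, a translesion DNA polymerase, averaged 90.1 ± 3.19 CPM in the knockout and 84.4 ± 1.56 CPM in the controls (SD, n = 3 each). Rrm2b, the p53-inducible subunit of ribonucleotide reductase, averaged 29.7 ± 0.881 CPM in the knockout and 31.3 ± 2.93 CPM in the controls. Neither passed (adjusted p = 0.246 for Polk and 0.552 for Rrm2b), and the sign of Rrm2b turned on TPM and without control replicate 1.

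The damage kinases went the other way: 3 of 4 were lower and 1 did not pass, beside 18.3% lower among all tested genes. Atm, the kinase activated by double-strand breaks, had 19.1, 23.6 and 18.3 CPM in the knockout, against 29.2, 30.4 and 26.3 CPM in the controls. It was 1.41-fold lower without overlap (log2 fold change -0.49, SE 0.11, adjusted p = 0.000509). Atr, the kinase of stalled replication forks, had 39.6, 46.8 and 40.7 CPM in the knockout and 50.7, 49.9 and 51.1 CPM in the controls. Atr was 1.19-fold lower (adjusted p = 0.0117) and lost the call without knockout replicate 1 or 3, where log2 fold changes were -0.20 and -0.22. Chek1, the effector kinase of Atr, had 7.29, 9.68 and 8.40 CPM in the knockout and 10.1, 13.1 and 12.4 CPM in the controls, 1.39-fold lower with no overlap (adjusted p = 0.0181). Its call was lost without knockout replicate 1, control replicate 2 or control replicate 3, where log2 fold changes were -0.38, -0.39 and -0.44.

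On TPM, limma called none of these kinases. Adjusted p over all alternatives ranged from 4.44e-05 to 0.163 for Atm, 0.00339 to 0.302 for Atr and 0.00979 to 0.314 for Chek1. Chek2, the effector of Atm, averaged 16.8 ± 2.71 CPM in the knockout and 16.5 ± 1.23 CPM in the controls (SD, n = 3 each, adjusted p = 0.937), and its sign turned with library totals and without knockout replicate 1 or control replicate 1. Between Chek1 and Chek2, and between Atm and Atr, the TPM ratios overlapped between groups (exact permutation p = 0.3 for each, two-sided). On CPM the ratio of Atm to Atr did not overlap, at 0.484, 0.506 and 0.454 in the knockout and 0.578, 0.611 and 0.516 in the controls (exact permutation p = 0.1, 0.16 adjusted over 8 pairs), while that of Chek1 to Chek2 overlapped.

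Brca1, which directs homologous recombination with Brca2, had 12.1, 12.7 and 7.34 CPM in the knockout and 15.4, 15.6 and 15.2 CPM in the controls. It was 1.44-fold lower, with knockout replicate 3 well below the other 2 (log2 fold change -0.53, SE 0.15, adjusted p = 0.00755). Without that library the log2 fold change was -0.31 and the call was lost, as it was on TPM (adjusted p = 0.00142 to 0.478 over the alternatives). Brca2, a tumour suppressor of the same repair pathway, had 10.2, 8.46 and 7.73 CPM in the knockout and 12.5, 11.2 and 10.4 CPM in the controls. These groups did not overlap, yet Brca2 did not pass (log2 fold change -0.38, SE 0.16, adjusted p = 0.0574). It passed with library totals (-0.40) and without knockout replicate 1 (-0.49), with an adjusted p of 0.0259 to 0.711 over the alternatives.

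**Figure D4:**
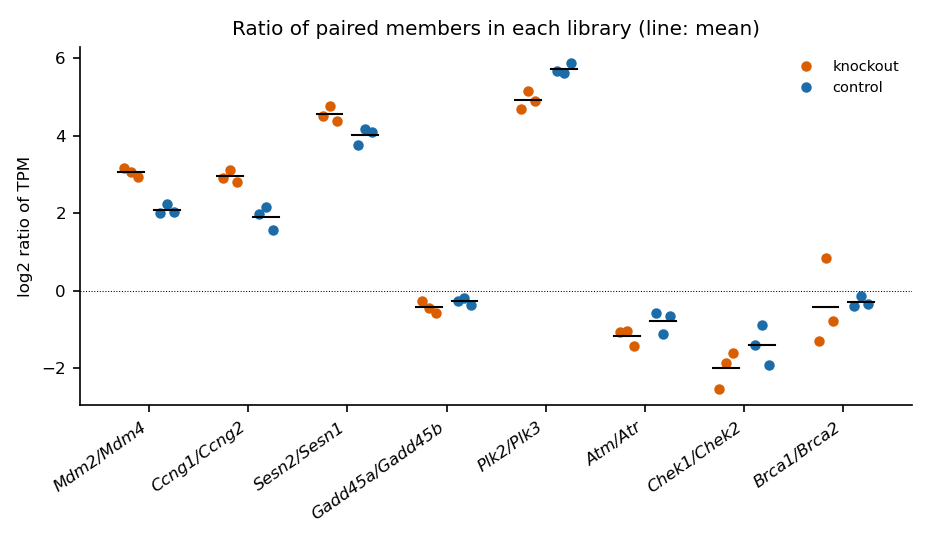
Log2 ratio of TPM between 8 pairs of related members in each knockout library (orange, left) and each control library (blue, right), with lines at the group means. Ratios of Mdm2 to Mdm4, of Ccng1 to Ccng2 and of Sesn2 to Sesn1 lie higher and that of Plk2 to Plk3 lower in all 3 knockout libraries. For Brca1 to Brca2 the knockout libraries are scattered on both sides of the controls.

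The summed TPM of the 36 members was 5020, 5147 and 5204 in the knockout libraries, against 3863, 3859 and 3930 in the controls. Ccng1 alone made up 15.8%, 17.1% and 16.5% of that sum in the knockout and 14.1%, 14.8% and 12.96% in the controls. Per length, on TPM, Ccng1 (845 ± 44.9 TPM in the knockout, 542 ± 30.5 TPM in the controls) and Gdf15 (728 ± 30.9 TPM in the knockout, 514 ± 17.4 TPM in the controls) held the first 2 places in both groups. The lowest level in both groups was that of Brca1 (3.09 ± 1.10 TPM in the knockout, 4.07 ± 0.163 TPM in the controls; SD, n = 3 each).

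Of 16 other p53 target genes that are not members, 10 (62.5%) rose, 2 (12.5%) fell and 4 did not pass, with a median log2 fold change of 0.21, beside 18.3% higher and 18.3% lower among all tested genes. Cdkn1a, the cyclin-dependent kinase inhibitor p21 and the best-known p53 target, rose 1.25-fold to 689 ± 17.8 CPM in the knockout, against 553 ± 11.6 CPM in the controls (SD, n = 3 each, adjusted p = 5.05e-07). Sulf2, a heparan sulfatase, rose 1.46-fold and Ak1, adenylate kinase, 1.51-fold (adjusted p = 1.82e-10 and 6.41e-09). Of the genes that drive mitochondrial death, Bax was 1.14-fold higher (adjusted p = 0.0302, with 0.0015 to 0.348 over the alternatives). That call was lost with library totals, DESeq2, TPM and without knockout replicate 1, control replicate 1 or control replicate 2, where log2 fold changes were 0.12, 0.15 and 0.14. Pmaip1, which encodes the BH3-only protein Noxa, fell 1.43-fold to 377 ± 7.15 CPM in the knockout, against 539.7 ± 17.0 CPM in the controls (adjusted p = 6.79e-11). Bbc3, which encodes Puma, and the death receptor gene Fas did not pass, at 53.8 ± 5.22 CPM in the knockout and 52.1 ± 2.18 CPM in the controls for Bbc3 (adjusted p = 0.681) and 6.09 ± 0.654 CPM in the knockout and 6.90 ± 0.843 CPM in the controls for Fas (adjusted p = 0.502).

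Modifiers and relatives of p53 gave 4 higher (30.8%), 2 lower (15.4%) and 7 that did not pass among 13 tested of 15. Among all tested genes 18.3% were higher and 18.3% lower, so the share that fell lies near that of all genes. Ppp1r13l, an inhibitor of p53, rose 1.24-fold and Pml, the scaffold of nuclear bodies, 1.22-fold, while the acetyltransferase gene Kat5 fell 1.27-fold (adjusted p = 0.000193, 0.00091 and 0.000883). The calls of Pml and Kat5 were lost on TPM (adjusted p = 0.000399 to 0.295 and 0.000398 to 0.131 over the alternatives).

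Of 19 genes of damage sensing and checkpoint control, 0 rose, 3 fell and 16 did not pass. The 15.8% that fell lies near the 18.3% of all tested genes that did, and the median log2 fold change was -0.08. The mitotic inhibitor kinase gene Wee1 fell 1.86-fold, to 12.8 ± 1.32 CPM in the knockout against 23.9 ± 3.61 CPM in the controls, and the checkpoint mediator gene Clspn 2.06-fold (adjusted p = 9.87e-07 and 0.000929). Mdc1, which binds marked chromatin at breaks, was 1.18-fold lower (adjusted p = 0.0256), a call lost with DESeq2, on TPM and without 4 of the libraries: knockout replicate 3 and control replicates 1, 2 and 3, with log2 fold changes of -0.19, -0.25, -0.24 and -0.21. In homologous recombination and the Fanconi pathway, 0 of 15 rose, 5 (33.3%) fell and 10 did not pass, with a median of -0.31, beside 18.3% lower among all tested genes. Fancd2 and its partner Fanci, which form the central complex of the Fanconi pathway, fell 2.27-fold and 1.62-fold, and Bard1, the partner of Brca1, fell 2.01-fold (adjusted p = 0.000385, 0.00605 and 0.000973). On TPM these calls and that of Clspn were lost. In nonhomologous end joining 0 of 7 rose, 3 (42.9%) fell and 4 did not pass, with a median of -0.22. Xrcc5, the larger Ku subunit, fell 1.46-fold and Prkdc, the kinase that it recruits, 1.49-fold (adjusted p = 2.37e-06 and 8.26e-05), the second of these not called on TPM. Lig4, the ligase of end joining, was 1.21-fold lower (adjusted p = 0.0147) and lost the call on TPM and without knockout replicate 2, control replicate 1 or control replicate 2, with log2 fold changes of -0.24, -0.23 and -0.26.

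In nucleotide excision repair, 3 of 12 genes besides the members were higher, 0 were lower and 9 did not pass, with a median log2 fold change of 0.05. The 25% called higher lies near the 18.3% of all tested genes. Ercc1, partner of the nuclease Xpf, rose 1.46-fold, Rad23b, partner of Xpc, 1.15-fold and Ddb1, partner of Ddb2, 1.10-fold (adjusted p = 3.74e-05, 0.000383 and 0.0111). Ddb1 lost its call on TPM and without knockout replicate 3 or control replicate 1, with log2 fold changes of 0.12 and 0.11. Base excision and mismatch repair gave 2 higher (16.7%), 4 lower (33.3%) and 6 not passing of 12. Among all tested genes 18.3% were higher and 18.3% lower, so the share that rose lies near that of all genes. Parp1, the poly(ADP-ribose) polymerase that senses nicks, fell 1.33-fold, and the mismatch gene Msh6 rose 1.31-fold (adjusted p = 8.1e-06 and 1.34e-05). Mutyh, an adenine glycosylase, was called lower at 0.345 ± 0.234 CPM in the knockout, near the floor, and 1.53 ± 0.494 CPM in the controls (adjusted p = 0.00237, not called on unfiltered TPM). Translesion synthesis gave 1 higher (14.3%), 1 lower (14.3%) and 5 not passing of 7, both near the shares of all tested genes. Rev3l was 1.20-fold lower and Rev1 1.17-fold higher (adjusted p = 0.00642 and 0.0316). Neither was called on TPM, Rev3l was also lost without knockout replicate 1 (-0.18), and Rev1 with library totals, DESeq2 and without knockout replicate 2 or any 1 control (0.17 to 0.25).

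**Figure D5:**
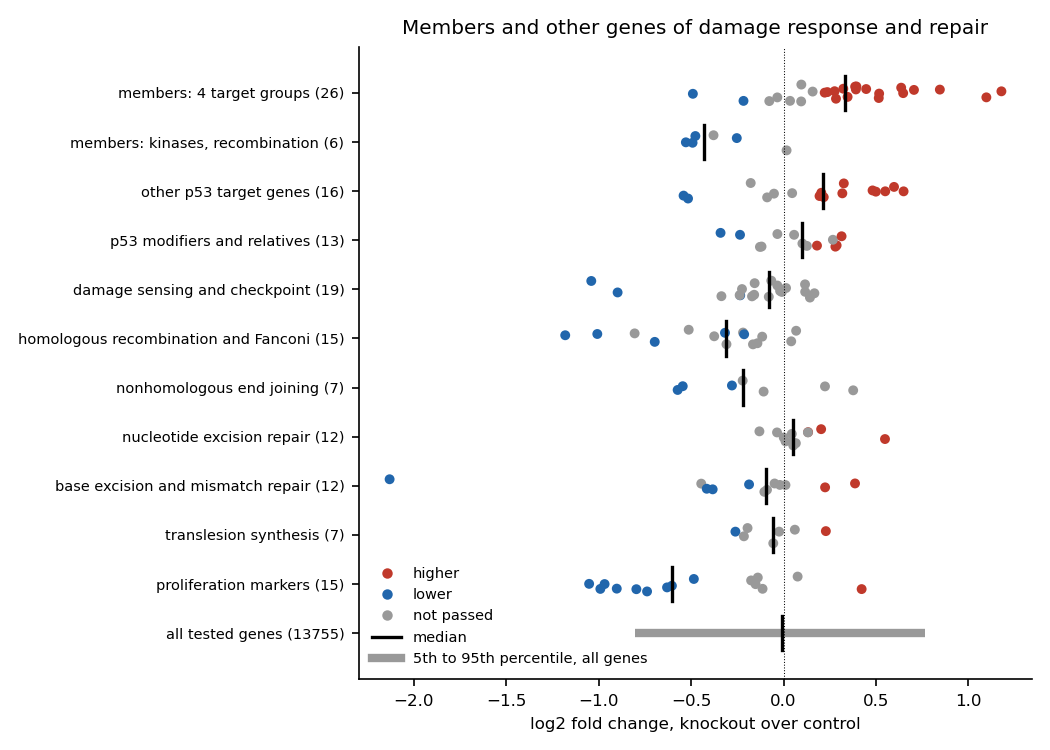
Log2 fold change, knockout over control, of the members and of each other list (points, with the number tested in brackets), coloured by call, with a black line at the median and, for all tested genes, a grey bar from the 5th to the 95th percentile. The medians of target members and of the other p53 targets, 0.33 and 0.21, lie to the right of 0, and those of recombination genes and proliferation markers, -0.31 and -0.60, to the left.

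Proliferation markers moved beside the falls in Brca1, Chek1 and the recombination genes. Of 15 such markers, 9 (60%) fell, 1 rose and 5 did not pass, beside 18.3% lower among all tested genes. Their summed level was 303 to 335 TPM in the knockout and 397 to 422 TPM in the controls. Top2a fell 1.74-fold, Mki67 1.99-fold and Plk1 1.96-fold (adjusted p = 2.94e-10, 7.34e-09 and 5.3e-07). The 1 marker that rose was Tyms, by 1.34-fold (adjusted p = 0.00189), and Mcm2, Mcm5, Rrm1, Rrm2 and Aurka did not pass. None of the 15 markers had 0 counts in all libraries. The part of the share of dividing cells in the levels of Brca1, Chek1, Brca2, Fancd2, Fanci and Clspn was not tested.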

How the data were processed

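RNA was sequenced from 6 libraries after mRNA enrichment, per the labels' protocols. Per the submitters' processing notes, featureCounts and Salmon were among the tools and mm10 was the build, with no version given. The authors deposited estimated counts per gene, not normalised (93.3% of nonzero values whole within 1e-06), and a table of TPM, scaled within each sample. No source used here gives the strand setting or annotation release.

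Counts were rounded, filtered with filterByExpr (13755 of 55487 genes kept), TMM-scaled and fitted in R 4.3.3 with edgeR 4.0.16 (quasi-likelihood F-test), knockout against control, two-sided, without covariates, with Benjamini-Hochberg adjustment over all genes tested. Standard errors come from the test statistic. The fits were tested on simulated data. Alternatives used DESeq2 1.42.0 and limma 3.58.1, among them log2(TPM + 1) and log2(TPM + 0.1) at a mean of at least 0.5 TPM. The added constant makes fold changes of low genes smaller than those of the TPM themselves. Set against counts, fold changes on TPM were larger for some low genes (Atm, Clspn) and smaller for others (Fancd2). Ratios of paired members were compared by exact permutation over libraries. Positions and exon overlaps are from GENCODE M21. Replicate numbers did not pair the libraries (r = 0.0049, 0.0076 and 0.0068, all under 0.1). Chi-square per degree of freedom between replicates was 2.02 to 3.65, more than sampling noise.

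The members, lists, tests and the rule for naming genes were chosen with earlier results of these data known. Every member is accounted for; from each other pathway list up to 3 called genes with the smallest p-values are named, besides Elf3, Cdkn1a, Bax, Bbc3, Pmaip1 and Fas. The genes Apaf1, Perp and Tnfrsf10b fall outside that rule and were named after their values were seen. So were the markers Kdr, Podxl, Synpo, Pecam1, Cdh5, Cd3e, Adgre1, Lum, Tyms, Mcm2, Mcm5, Rrm1, Rrm2 and Aurka. In all, 1 gene was left out of each of 2 lists, podocyte markers and recombination genes, and is not reported here.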

Additional observations from a re-analysis of the deposited data

How the results depend on the processing

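Of the 26 members called, 17 kept their call and direction in all 17 alternatives. Members called lower, 6 on counts, numbered 0 with log2(TPM + 1), 0 with log2(TPM + 0.1), 0 with log2(TPM + 1) without a filter, and 3 at an adjusted p under 0.01; the cause was not tested. Over all genes, 1421, 1412 and 1195 were higher and 1291, 1304 and 980 lower in these TPM settings, against 2516 and 2512 on counts. Without 1 library, 19 to 20 members were higher and 4 to 5 lower. With the replicate number as a block, 20 members were higher and 6 lower, and 2561 and 2585 of all genes; the numbers do not pair the libraries. With library totals 44.5% of called genes were higher, against 50.04% with TMM.

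Signs turned for genes that did not pass: Chek2 with library totals (-0.0088), Rrm2b on TPM (0.0592, 0.0629 and 0.0592), and, on leaving out 1 library, Mdm4 (-0.1106 to 0.0168), Sesn3 (-0.0719 to 0.0237), Rrm2b (-0.1253 to 0.0034), Chek2 (-0.1054 to 0.1176) and Bbc3 (-0.0121 to 0.1221). The log2 ratio of Brca1 to Brca2 differed by -0.12 with all libraries and by -0.75 to 0.33 without 1, turning without knockout replicate 1 (0.33) or 3 (0.06). With 3 libraries a group, the members of low counts Sesn1, Chek1, Plk3, Brca2 and Brca1 had the largest standard errors.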

Other observations

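For a few members the deposited counts and TPM moved apart between libraries. Counts per TPM were set against the median gene of the same library. For Brca2 this quotient was 0.92, 2.64 and 1.68 in the knockout libraries and 1.70, 1.72 and 1.49 in the controls, so that the highest was 2.88 times the lowest, beside a median of 1.10 times over 13709 tested genes. Knockout replicates 1 and 2 had 91 and 90 estimated counts of Brca2 but 7.84 and 2.32 TPM. Sesn3 spread 1.99 times, with control replicate 3 apart at 1.27 beside 1.96 to 2.53 in the other 5 libraries, and Chek2 1.79 times, with control replicate 2 highest at 0.82. Atm spread 1.53 times. For Mdm4 the quotient was 1.74, 1.83 and 1.86 in the knockout and 1.42, 1.66 and 1.47 in the controls, without overlap, beside a lower TPM in the knockout and overlapping CPM. No source used here gives which transcripts each quantity was computed on.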
